A study of Danio rerio with 4 samples.

Results

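The genes described here write, maintain and erase methylation of cytosine in DNA, and they were measured in livers of fasting zebrafish larvae treated with lipofermata, a small molecule used as an inhibitor of the fatty acid transporter Slc27a2. The 10 genes were chosen by name (uhrf1, dnmt1, hells, dnmt3aa, dnmt3ab, dnmt3ba, dnmt3bb.1, tet1, tet2 and tet3), each matched 1 identifier among the 32058 gene rows of the count table, and all 10 had enough counts to be tested. The lipofermata group received 5 µM of the compound in DMSO, and the DMSO group received the solvent. In both groups treatment began at 4 days post fertilization (dpf) and lasted 48 h without food, and livers were dissected at 6 dpf from larvae that the labels give as genotype AB. Each group had 2 libraries of polyadenylated RNA, and each library was a pool of the livers of 30 larvae, so differences between animals cannot be seen. No source says whether the replicates came from separate clutches, and p-values measure only the spread between these pools.

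In vertebrates, methyl groups sit mainly on cytosines followed by guanine. When DNA is copied the new strand is unmethylated, and Uhrf1 binds the resulting half-methylated sites and brings the methyltransferase Dnmt1, which restores the mark, while Hells opens chromatin for this work. Enzymes of the Dnmt3 family place new marks, and TET enzymes oxidize methylcytosine, after which base excision repair or further rounds of replication can remove it. Zebrafish that lack uhrf1 or dnmt1 form small livers, and both genes are best known from dividing cells.

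The libraries held 14997821 to 19368695 counts, and TMM factors, which scale libraries so that most genes keep their level, were 0.817 to 1.16. All 15 hepatocyte markers were detected and tested, with summed levels of 49219 and 52830 CPM (counts scaled to a common library size) in the lipofermata libraries and 67241 and 80194 CPM in the DMSO libraries. An EGFP row was also present in every library, although the genotype label names no reporter. It had 495 and 322 CPM in the lipofermata libraries and 818 and 711 CPM in the DMSO libraries. The 10 most abundant genes took 16.4% and 16.2% of all counts in the lipofermata libraries and 23.9% and 25.3% in the DMSO libraries, so the choice of scaling bears on every level. In the quasi-likelihood test of edgeR, with a threshold of 0.1 on the adjusted p and TMM scaling, 2479 of 14925 genes rose with lipofermata and 2527 fell, which puts 49.5% of the calls on the higher side. Scaling by library totals alone put 81.2% there (5092 rose and 1182 fell) and lifted the median over all genes by 0.39 in log2 fold change. Directions given here are therefore relative to the bulk of genes in a library.

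Of the 10 genes, uhrf1, dnmt1 and dnmt3ba rose with lipofermata, dnmt3bb.1 fell, and hells, dnmt3aa, dnmt3ab and the 3 tet genes did not pass the test. Of all genes tested, 33.5% passed in either direction, 16.6% as higher and 16.9% as lower, so that 4 of 10 is close to the background and says nothing about the genes as a group. The libraries of the groups did not overlap for 7 of the 10 genes, against 65.2% of all genes tested. The median log2 fold change of the 10 genes was -0.02, beside -0.03 over all genes tested. In bulk livers, fewer cells of a type and less RNA per cell cannot be told apart.

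**Figure D1:**
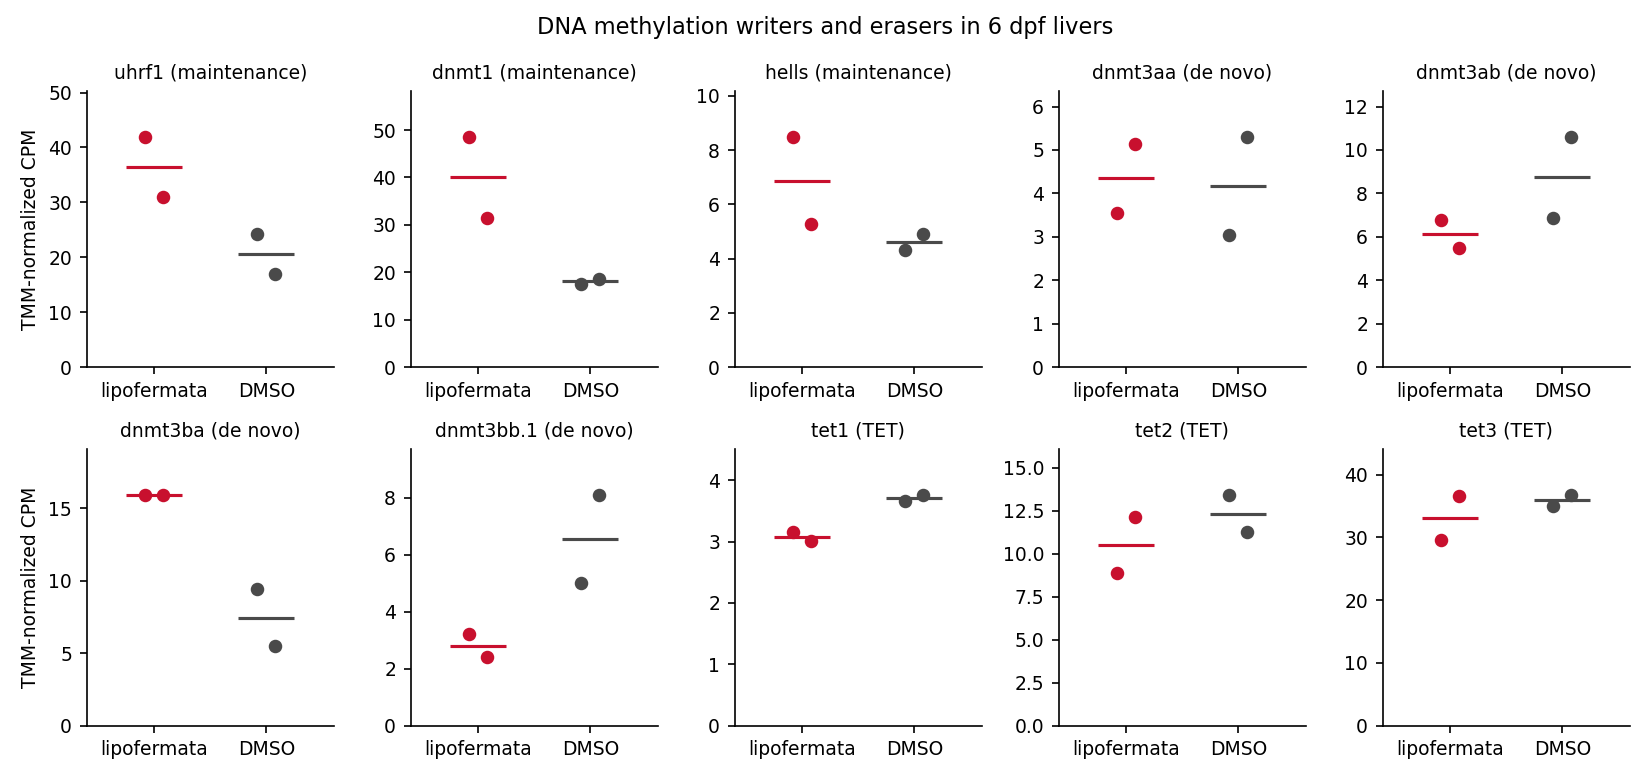
Levels of the 10 genes in TMM-normalized CPM, with a separate axis from 0 for each gene. Each point is 1 library, horizontal lines are means of the 2 libraries of a group, red is lipofermata and grey is DMSO. The points of uhrf1, dnmt1 and dnmt3ba lie higher in both lipofermata libraries than in both DMSO libraries, those of dnmt3bb.1 lie lower, and those of dnmt3aa, tet2 and tet3 overlap.

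Among the maintenance genes, dnmt1 (ENSDARG00000030756), the maintenance methyltransferase itself, had 48.6 and 31.4 CPM in the lipofermata libraries, against 17.6 and 18.6 CPM in the DMSO libraries. Both lipofermata libraries were above both DMSO libraries, and lipofermata replicate 1 stood well above replicate 2. The counts behind these levels were 973 and 574 with lipofermata and 318 and 228 with DMSO. The means were 40.0 ± 12.1 CPM with lipofermata and 18.1 ± 0.699 CPM with DMSO (SD, n = 2 pools each). The log2 fold change of dnmt1 was 1.15 (standard error 0.20, 95% interval 0.70 to 1.59, adjusted p = 0.0030 in this edgeR test), a 2.21-fold rise. It passed the test under all 12 alternative settings, with values from 0.80 without lipofermata replicate 1 to 1.54 with total-count scaling.

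The gene uhrf1 (ENSDARG00000103409), which encodes the reader of half-methylated DNA, had 42.0 and 30.9 CPM in the lipofermata libraries, against 24.2 and 17.0 CPM in the DMSO libraries. The groups did not overlap, but the lower lipofermata library and the higher DMSO library lay closer to each other than they did for dnmt1. The counts were 840 and 565 with lipofermata and 436 and 208 with DMSO, and the means were 36.5 ± 7.80 CPM with lipofermata and 20.6 ± 5.08 CPM with DMSO (SD, n = 2 pools each). The log2 fold change of uhrf1 was 0.82 (standard error 0.20, 95% interval 0.37 to 1.27, adjusted p = 0.0156 from the same edgeR test), a 1.76-fold rise. Without lipofermata replicate 1 the value was 0.59 and uhrf1 did not pass, in a fit with a single library in that group. It passed under the other 11 alternatives.

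The gene hells (ENSDARG00000057738), a chromatin remodeler of the SNF2 family, had 8.50 and 5.26 CPM in the lipofermata libraries, against 4.32 and 4.90 CPM in the DMSO libraries. Only lipofermata replicate 1 stood clearly above the rest, and replicate 2 was close to the higher DMSO library. The counts were 170 and 96 with lipofermata and 78 and 60 with DMSO. For hells the log2 fold change was 0.58 with a 95% interval of -0.09 to 1.26 (adjusted p = 0.188 from the edgeR test), so that neither no change nor a rise as large as that of dnmt1 lies outside the interval. Without lipofermata replicate 1 the value was 0.20 (adjusted p = 0.819), and with total-count scaling hells passed at 0.97 (adjusted p = 0.0398).

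Counts of the maintenance genes were also set against each other within a library, where scaling plays no part. This and the other ratios between genes were chosen after the levels were seen. There were 0.175 and 0.167 hells counts per dnmt1 count in the lipofermata libraries, against 0.245 and 0.263 in the DMSO libraries. Both lipofermata ratios were the lower, with an exact two-sided permutation p of 0.333, which is the smallest that 2 libraries against 2 can give. The ratio of uhrf1 to dnmt1 was 0.863 and 0.984 with lipofermata and 1.37 and 0.912 with DMSO, and here the groups overlapped.

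Since uhrf1 and dnmt1 are used when DNA is copied, their levels were compared with those of genes of DNA replication. Of 41 tested genes of DNA replication, 32 rose and none fell, whereas 16.6% of all genes tested rose and 16.9% fell. The median log2 fold change of the list was 1.05, and 33 of its genes had an unadjusted p under 0.05 (32 rose with limma voom and 26 passed with DESeq2). Those with the smallest p were rrm2 (3.07) and rrm1 (1.85), the subunits of ribonucleotide reductase, the sliding clamp pcna (1.43) and the ligase lig1 (1.47). Without lipofermata replicate 1, 19 of the replication genes rose. The log2 fold changes of dnmt1 (1.15), uhrf1 (0.82) and hells (0.58) all lie within the range of this list, 0.06 to 3.07. That range is wide, so lying within it does not show that they moved as the replication genes did. Those of uhrf1 and hells were below the list median of 1.05.

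The level of dnmt1 over the mean of the replication genes, in log2 CPM, was 2.08 and 1.68 in the lipofermata libraries, against 1.79 and 2.02 in the DMSO libraries. These values overlap, with a difference of -0.03 between the group means (exact two-sided permutation p = 1). For uhrf1 the same quantity was 1.87 and 1.66 with lipofermata and 2.25 and 1.89 with DMSO, a difference of -0.30. For hells it was -0.42 and -0.87 with lipofermata and -0.21 and 0.12 with DMSO, a difference of -0.60. For uhrf1 and hells both lipofermata values were below both DMSO values, with an exact two-sided permutation p of 0.333 each, again the smallest possible. All 24 tested genes of mitosis rose (median log2 fold change 2.68), against 16.6% of all genes tested. Set against these mitosis genes instead, the differences were -1.77 for dnmt1, -2.05 for uhrf1 and -2.35 for hells. The summed level of the mitosis genes was 337 and 285 CPM with lipofermata and 66.0 and 30.0 CPM with DMSO. DMSO replicate 1, the higher in mitosis genes, was also the higher DMSO library for uhrf1 and dnmt3ba. It was not for dnmt1 or hells, whose DMSO libraries were close to each other. Lipofermata replicate 1, the higher lipofermata library in mitosis genes, was also the higher for dnmt1, uhrf1 and hells, whereas dnmt3ba was level there.

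By the shape of their levels over the 4 libraries (Euclidean distance between log2 CPM centred on each gene's mean, among 9809 genes with a mean log2 CPM of at least 2), the genes most like dnmt1 were fen1 (distance 0.091), gnai3, fam89a, cep135 and pola1 (0.163). Of these, fen1, a nuclease that trims Okazaki fragments, and pola1, the catalytic subunit of the primase-bound polymerase, are replication genes, cep135 encodes a centriole protein and gnai3 a G protein subunit. Those most like uhrf1 were dtd1 (0.040), mad1l1, which encodes a spindle checkpoint protein, pofut1, an O-fucosyltransferase, spint2, a protease inhibitor, and si:dkey-96g2.1 (0.086). Those most like hells were zmiz1b (0.034), qsox2, pagr1, smfn and eif3hb (0.120), a translation initiation factor subunit. Such a match over 4 libraries is a description only.

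The helpers of maintenance were taken from lists of genes, of which the list of other writers is mixed. Besides cdca7a and cdca7b it includes trdmt1 and the Dnmt3 family genes dnmt3bb.2 and dnmt3bb.3, which are described below. Its counts therefore do not describe maintenance alone. Of 5 tested genes grouped as other writers, 4 rose (cdca7a, cdca7b, dnmt3bb.2 and dnmt3bb.3) and 1 did not pass. The median log2 fold change of the list was 0.93, beside -0.03 over all genes tested, of which 16.6% rose. Only 2 of the other writers rose with DESeq2, and calls were also lost on leaving out either lipofermata replicate. Among them cdca7a (log2 fold change 0.88, adjusted p = 0.0162) and cdca7b (0.93, adjusted p = 0.0259), whose mammalian counterpart CDCA7 recruits HELLS to chromatin, rose in the edgeR test. The gene cdca7a had 10.4 ± 0.0804 CPM with lipofermata and 5.60 ± 0.0721 CPM with DMSO (SD, n = 2 pools each). The gene cdca7b did not pass without lipofermata replicate 2 (adjusted p = 0.164, the highest over its alternatives, whose lowest was 0.00723). The tRNA methyltransferase trdmt1, which is related to Dnmt1 in sequence but acts on RNA, had a log2 fold change of -0.51 and did not pass.

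Of 12 tested partners of maintenance, 7 rose, none fell and 5 did not pass (7 had an unadjusted p under 0.05, 6 passed with limma voom and 5 with DESeq2). Their median log2 fold change was 0.49, and 16.6% of all genes tested rose. At the replication fork, lig1 (1.47) and pcna (1.43) rose, as did pclaf (2.00), whose human product PAF15 is ubiquitylated by UHRF1 and holds DNMT1 at the fork. Both lig1 and pcna are also on the list of DNA replication above and are counted in both lists. The counts behind pclaf were only 46 with lipofermata and 9 with DMSO, and it did not pass when any of the 4 libraries was left out or with DESeq2 (highest adjusted p = 0.442, lowest 0.0297). Genes of repressive chromatin that rose were suv39h1b (1.65), a methyltransferase of lysine 9 of histone H3, the heterochromatin protein cbx5 (0.53), the H3 methyltransferase setdb1b (0.52) and the deacetylase hdac1 (0.47). Of these, suv39h1b passed in all 12 alternatives, whereas the other 3 did not pass without lipofermata replicate 1, hdac1 also did not pass without lipofermata replicate 2, and setdb1b also did not pass with DESeq2, with limma voom or without DMSO replicate 2. The deubiquitylase usp7 (-0.22), the H3 methyltransferases ehmt1a (0.19), ehmt1b (-0.38) and ehmt2 (-0.39) and setdb1a (-0.15) did not pass. Without lipofermata replicate 1, 3 of the partners rose, as the count over all genes fell to 1128 higher, against 2479 with all libraries.

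**Figure D2:**
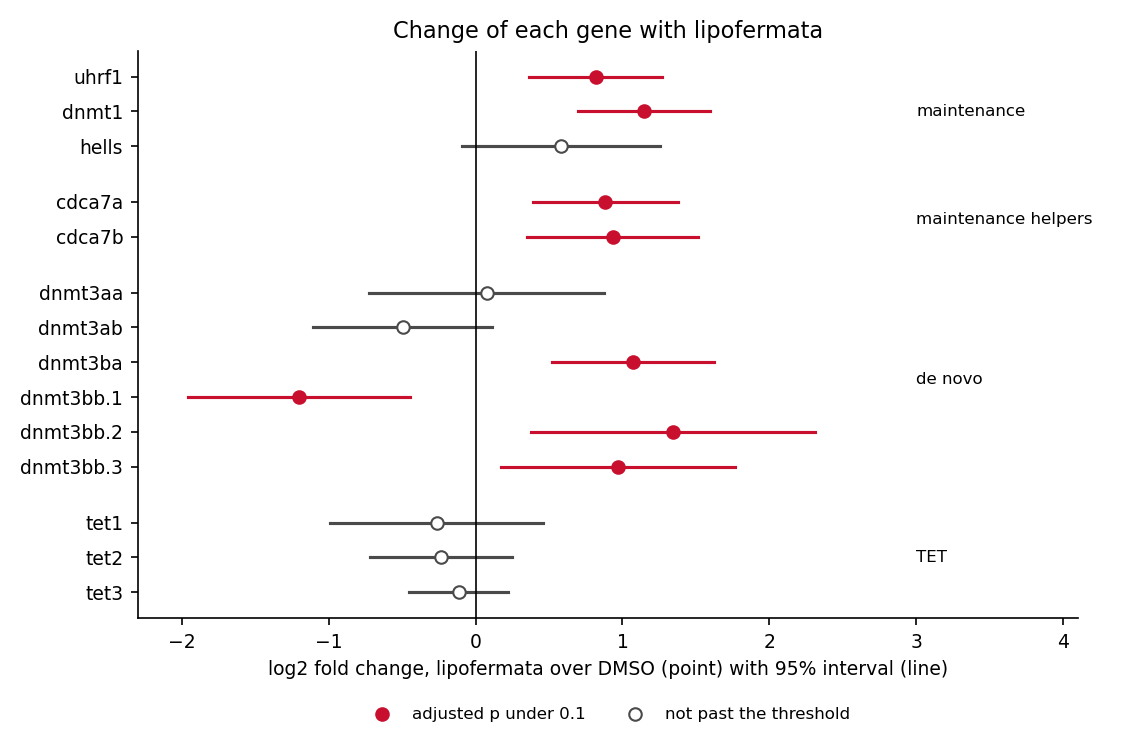
Log2 fold changes of lipofermata over DMSO (points) with 95% intervals (lines) from the edgeR fit, for the 10 genes and for cdca7a, cdca7b, dnmt3bb.2 and dnmt3bb.3. Filled red points passed an adjusted p of 0.1 and open points did not. The intervals of dnmt1 (0.70 to 1.59) and dnmt3bb.1 (-1.96 to -0.45) lie on opposite sides of 0, and those of the tet genes include it, with point values that turn positive under total-count scaling.

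The de novo enzymes did not move together. The gene dnmt3ba (ENSDARG00000052402), a zebrafish gene of the Dnmt3b type, had 15.9 CPM in each of the lipofermata libraries, against 9.43 and 5.47 CPM in the DMSO libraries. Both lipofermata libraries stood above both DMSO libraries, and the lipofermata replicates were nearly equal while DMSO replicate 1 was well above replicate 2. The counts were 318 and 290 with lipofermata and 170 and 67 with DMSO. The log2 fold change of dnmt3ba was 1.07 (standard error 0.25, 95% interval 0.52 to 1.62, adjusted p = 0.0109 from the edgeR test), a 2.10-fold rise, and it passed under all 12 alternatives (0.75 without DMSO replicate 2 to 1.54 without DMSO replicate 1).

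The gene dnmt3bb.1 (ENSDARG00000036791), also of the Dnmt3b type and known in zebrafish for its part in blood stem cells, went the other way. It had 3.20 and 2.41 CPM in the lipofermata libraries, against 4.99 and 8.08 CPM in the DMSO libraries. Both lipofermata libraries were below both DMSO libraries, on 64 and 44 counts with lipofermata and 90 and 99 counts with DMSO. The log2 fold change of dnmt3bb.1 was -1.20 (standard error 0.34, 95% interval -1.96 to -0.45, adjusted p = 0.0268 from the edgeR test), to 0.434 times the DMSO level. It did not pass without lipofermata replicate 2 (-1.02) or without DMSO replicate 2 (-0.83), fits with a single library in a group. With total-count scaling the value was -0.80 (adjusted p = 0.0936 from the edgeR test).

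In the same livers, markers of some other cell types were lower with lipofermata. Of 15 tested endothelial markers 13 fell and none rose, with summed levels of 253 and 236 CPM in the lipofermata libraries and 901 and 808 CPM in the DMSO libraries. Of 9 tested markers of fibroblasts and mural cells 7 fell (4 without lipofermata replicate 1) and none rose, with 71.4 and 157 CPM with lipofermata and 291 and 425 CPM with DMSO. Of 6 epidermal markers 3 fell and none rose (1 rose without DMSO replicate 2), with 120 and 148 CPM with lipofermata and 543 and 706 CPM with DMSO. Macrophage markers summed to 25.1 and 27.9 CPM with lipofermata and to 80.3 and 19.9 CPM with DMSO, with 2 of 7 tested genes lower. That count turned on the DMSO libraries, with 0 lower and 1 higher without DMSO replicate 1 and 9 of the 10 listed genes lower without DMSO replicate 2, and was 0 with total-count scaling. Muscle markers were scarce, with 0.70 and 1.48 CPM with lipofermata and 7.32 and 4.25 CPM with DMSO. Of the 3 muscle markers tested 2 fell and none rose, and the calls of those that fell were lost without lipofermata replicate 1. Only 1 neuron marker was tested, and it did not pass. Hepatocyte markers are described below. Of 6 tested erythroid markers 1 rose and 0 fell, and of 5 neutrophil markers 1 rose and 2 fell. Of 6 biliary markers 2 rose and 2 fell. Of 10 pancreas markers and of 4 intestine markers, 1 rose and 0 fell in each list. The erythroid, pancreas and intestine markers that rose did not pass without lipofermata replicate 1. Pancreas markers summed to 9727 and 4452 CPM with lipofermata and to 3725 and 8568 CPM with DMSO, so replicates of each group differed widely. Over all genes tested, 16.6% rose and 16.9% fell. All 9 lymphocyte markers were too low to be tested, with rag1 and cd79b at 0 counts in all 4 libraries. The part of these cells in the level of dnmt3bb.1 was not tested.

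The genes of the Dnmt3a type were dnmt3aa and dnmt3ab. The gene dnmt3ab (ENSDARG00000015566) had 6.80 and 5.48 CPM in the lipofermata libraries, against 6.87 and 10.6 CPM in the DMSO libraries. The groups did not overlap, but lipofermata replicate 1 and DMSO replicate 1 were nearly equal. Its log2 fold change was -0.50 (95% interval -1.11 to 0.11, adjusted p = 0.215 from the edgeR test), and it passed only without DMSO replicate 1 (-0.78, adjusted p = 0.0192). The gene dnmt3aa (ENSDARG00000005394) had 3.55 and 5.15 CPM with lipofermata and 3.05 and 5.31 CPM with DMSO. These ranges nearly coincide, and the log2 fold change of 0.07 had a 95% interval of -0.73 to 0.87 on 165 and 120 counts. With these 2 pools a group, the interval includes no change as well as changes in either direction. The sign of the value turned when a replicate was left out (-0.22 without lipofermata replicate 2, 0.51 without DMSO replicate 2).

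By order along the chromosome in RefSeq's GRCz12tu assembly, dnmt3bb.1, dnmt3bb.2 and dnmt3bb.3 are consecutive coding genes, and dnmt3bb.2 and dnmt3bb.3 had changes of the opposite sign to dnmt3bb.1. The gene dnmt3bb.2 had 3.35 ± 0.558 CPM with lipofermata and 1.29 ± 0.444 CPM with DMSO (SD, n = 2 pools each; 129 and 41 counts), a log2 fold change of 1.34 (adjusted p = 0.0464 from the edgeR test). The gene dnmt3bb.3 had 4.41 ± 0.896 CPM with lipofermata and 2.28 ± 0.476 CPM with DMSO (SD, n = 2 pools each; 170 and 67 counts), a log2 fold change of 0.97 (adjusted p = 0.0736 from the edgeR test). Both rose in this test, but with DESeq2 the adjusted p was 0.123 and 0.205, neither passed on leaving out a lipofermata replicate, and dnmt3bb.3 also did not pass without DMSO replicate 1. How the counting treated reads that match several of these related genes is not given in the sources used here.

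Taken as shares of all counts of the 6 dnmt3 genes, dnmt3ba made up 41.6% and 44.5% in the lipofermata libraries, against 33.8% and 16.5% in the DMSO libraries. The exact 95% binomial intervals, which cover counting error only, were 38.0 to 45.2% and 40.7 to 48.5% with lipofermata and 29.7 to 38.1% and 13.1 to 20.5% with DMSO. The share of dnmt3bb.1 was 8.37% and 6.76% with lipofermata and 17.9% and 24.4% with DMSO. The share of dnmt3ab was 17.8% and 15.4% with lipofermata and 24.7% and 32.1% with DMSO. For dnmt3ba, dnmt3bb.1 and dnmt3ab the groups did not overlap, and the same held for the rising shares of dnmt3bb.2 and dnmt3bb.3, each with an exact two-sided permutation p of 0.333, the smallest possible. The share of dnmt3aa overlapped between the groups. The 6 shares of a library make up a whole, so a larger share of any gene lowers those of others, and these separations are not independent. For dnmt3ab the counts themselves, before any scaling, were 236 with lipofermata and 254 with DMSO. Its log2 fold change was -0.50 with TMM and -0.09 with total-count scaling, neither past the edgeR test. There were 4.97 and 6.59 dnmt3ba counts per dnmt3bb.1 count with lipofermata, against 1.89 and 0.677 with DMSO. Gene length enters all these shares, so they compare libraries and not genes.

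**Figure D3:**
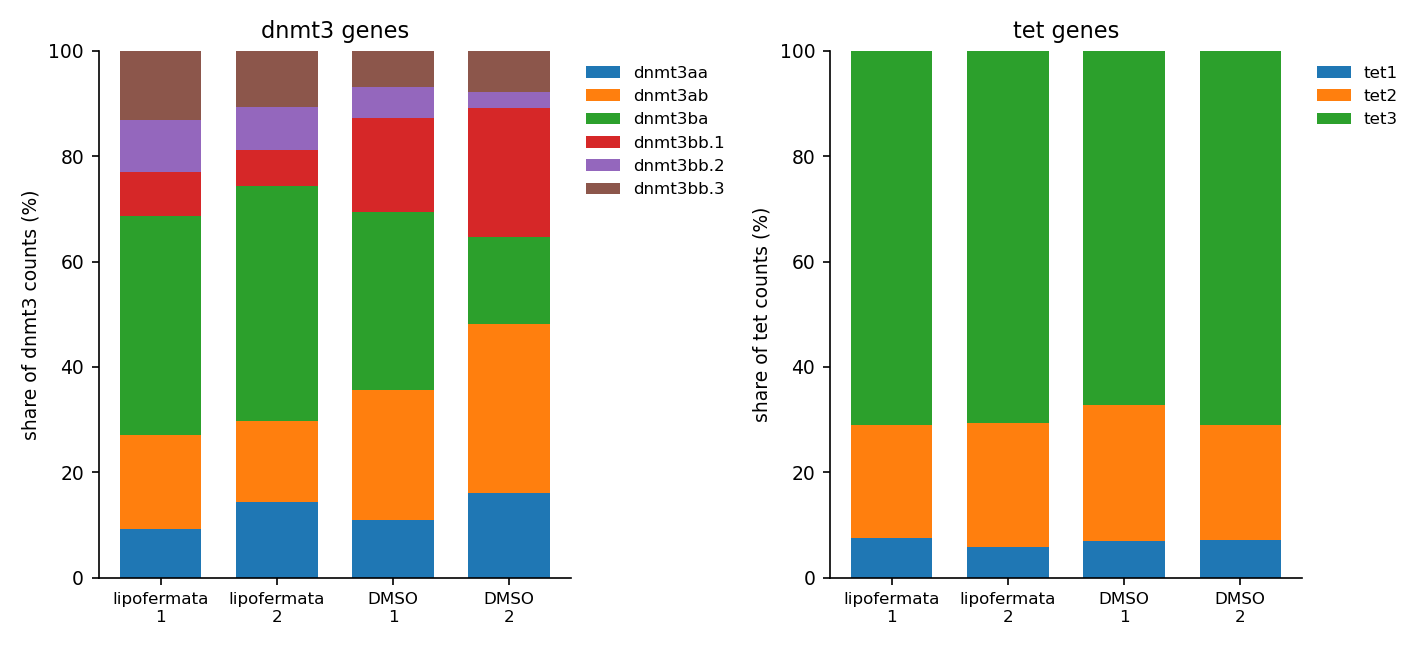
Share of the summed raw counts of the 6 dnmt3 genes (left) and of the 3 tet genes (right) taken by each gene, in percent, 1 bar per library. In the dnmt3 bars the green block, dnmt3ba, is 41.6% and 44.5% in the lipofermata libraries and 33.8% and 16.5% in the DMSO libraries, and the red block, dnmt3bb.1, is smaller with lipofermata, whereas the tet bars look alike in the 4 libraries.

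None of the 3 TET genes passed the edgeR test, none had an unadjusted p under 0.05, and none passed with DESeq2 or limma voom. The gene tet3 (ENSDARG00000062646) had 29.6 and 36.6 CPM in the lipofermata libraries, against 35.0 and 36.7 CPM in the DMSO libraries. Lipofermata replicate 1 was the lowest, and the other 3 libraries lay close together. Its log2 fold change was -0.12 with a 95% interval of -0.46 to 0.22 on 1261 and 1082 counts, the narrowest interval of the 10 genes. The gene tet2 (ENSDARG00000076928), which with tet3 is needed for blood stem cells to form in zebrafish, had 8.89 and 12.2 CPM with lipofermata and 13.4 and 11.3 CPM with DMSO. These overlap, with a log2 fold change of -0.24 (95% interval -0.72 to 0.25). The gene tet1 (ENSDARG00000075230) had 3.15 and 3.01 CPM with lipofermata and 3.66 and 3.76 CPM with DMSO.

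For tet1 the replicates were close and the groups did not overlap, but the counts were low (63 and 55 with lipofermata, 66 and 46 with DMSO) and the log2 fold change of -0.27 had a 95% interval of -0.99 to 0.46. The intervals of all 3 tet genes lie within a 2-fold change in either direction. With total-count scaling their values were 0.12 for tet1, 0.14 for tet2 and 0.27 for tet3, none past the test, so that no direction can be given for them. Of all tet counts, tet3 took 71.1% and 70.7% with lipofermata and 67.2% and 71.0% with DMSO, and the share of each tet gene overlapped between the groups. Counts of the 3 maintenance genes came to 2.38 and 1.31 times those of the 3 tet genes in the lipofermata libraries, against 0.885 and 0.782 times in the DMSO libraries. This ratio was higher in both lipofermata libraries, with lipofermata replicate 1 far above the rest (exact two-sided permutation p = 0.333, the smallest possible).

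Among genes that act after TET oxidation, 12 of base excision were tested, of which 3 rose, 1 fell and 8 did not pass (6 had an unadjusted p under 0.05), so that 4 of 12 passed, close to the 33.5% of all genes that did. Their median log2 fold change was 0.46. The glycosylase gene tdg.1, whose product removes oxidized methylcytosine, had 11.8 ± 0.0274 CPM with lipofermata and 5.12 ± 0.998 CPM with DMSO (SD, n = 2 pools each). This was a difference of 1.19 in log2 (adjusted p = 0.0049 in the edgeR test), and tdg.1 passed under all 12 alternatives. Its paralog tdg.2 had 0.68 and did not pass, and the thymine glycosylase mbd4 had -0.42 and did not pass. The abasic site nuclease apex1 (0.97) and parp1 (0.64), which senses strand breaks, rose, but neither passed without lipofermata replicate 1, and parp1 did not pass with DESeq2, without lipofermata replicate 2 or without DMSO replicate 2. The glycosylase gene neil1, which acts on oxidized bases, fell to 10.2 ± 1.04 CPM with lipofermata, against 19.3 ± 2.06 CPM with DMSO (SD, n = 2 pools each), a log2 fold change of -0.93 (adjusted p = 0.0052), and passed under all 12 alternatives. With total-count scaling 7 of the base excision genes rose, and without lipofermata replicate 1 only 1 rose.

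Of 5 tested genes that supply or modify TET enzymes, none rose (1 with total-count scaling), whereas 33.5% of all genes tested passed in either direction. Only ogt.1, the O-GlcNAc transferase that binds TET enzymes, fell. Its log2 fold change was -0.36 (adjusted p = 0.0796), 0.025 with total-count scaling, and it did not pass with DESeq2, with no filter on low counts or without either lipofermata replicate. The dehydrogenases idh1 (0.03) and idh2 (0.007), which make the cosubstrate 2-oxoglutarate, did not pass.

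Of 10 tested readers of methylated DNA, zbtb33 fell, none rose and 9 did not pass (1 had an unadjusted p under 0.05). So 1 of 10 passed, against 33.5% of all genes tested. In log2 fold change the median of the readers was 0.04. The gene zbtb33, which encodes Kaiso, had a log2 fold change of -0.73 (adjusted p = 0.0817 from the edgeR test). The call was lost with DESeq2, with total-count scaling, on leaving out a lipofermata replicate and without DMSO replicate 1. The other readers, among them mbd2 (0.10), mbd3a (0.008) and mbd1b (0.24), lay between -0.50 and 0.24.

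The methyl donor S-adenosylmethionine comes from the methionine cycle, which is highly active in liver. Of 21 tested genes of this cycle 4 rose (19.0%, against 16.6% of all genes tested), 4 fell (against 16.9%) and 13 did not pass. These counts are close to the background and say nothing about the cycle as a whole. In log2 fold change the median of the 21 genes was 0.15. With total-count scaling 11 rose and 2 fell, and without lipofermata replicate 1 there were 1 higher and 0 lower, against 2 higher and 1 lower without lipofermata replicate 2. The gene mat2ab, a methionine adenosyltransferase of the type used outside mature hepatocytes in mammals, rose by 1.15 (adjusted p = 4.17e-04) and passed under all 12 alternatives. The gene ahcyl2b (0.60), related to ahcy, rose as well but did not pass without lipofermata replicate 1. The hepatic form mat1a (0.37) and mat2aa (0.39) passed only narrowly (adjusted p = 0.0995 and 0.0994), and neither passed when either lipofermata replicate was left out. The gene ahcy, which clears the inhibitory product S-adenosylhomocysteine, fell by 0.86, and bhmt (-0.62), which remakes methionine from betaine, shmt1 (-0.76) and cbsb (-0.56), which draws homocysteine into cysteine synthesis, fell as well. None of these 4 passed without lipofermata replicate 1, and all but shmt1 did not pass without lipofermata replicate 2. With total-count scaling bhmt (-0.22) and cbsb (-0.17) did not pass. The part of hepatocyte content in these levels was not tested. In the same livers 6 of 15 hepatocyte markers fell and none rose, with a median log2 fold change of -0.35, whereas 16.9% of all genes tested fell. Without DMSO replicate 1, 12 fell, with the replicate number as a block 10 fell, and with total-count scaling 1 rose.

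**Figure D4:**
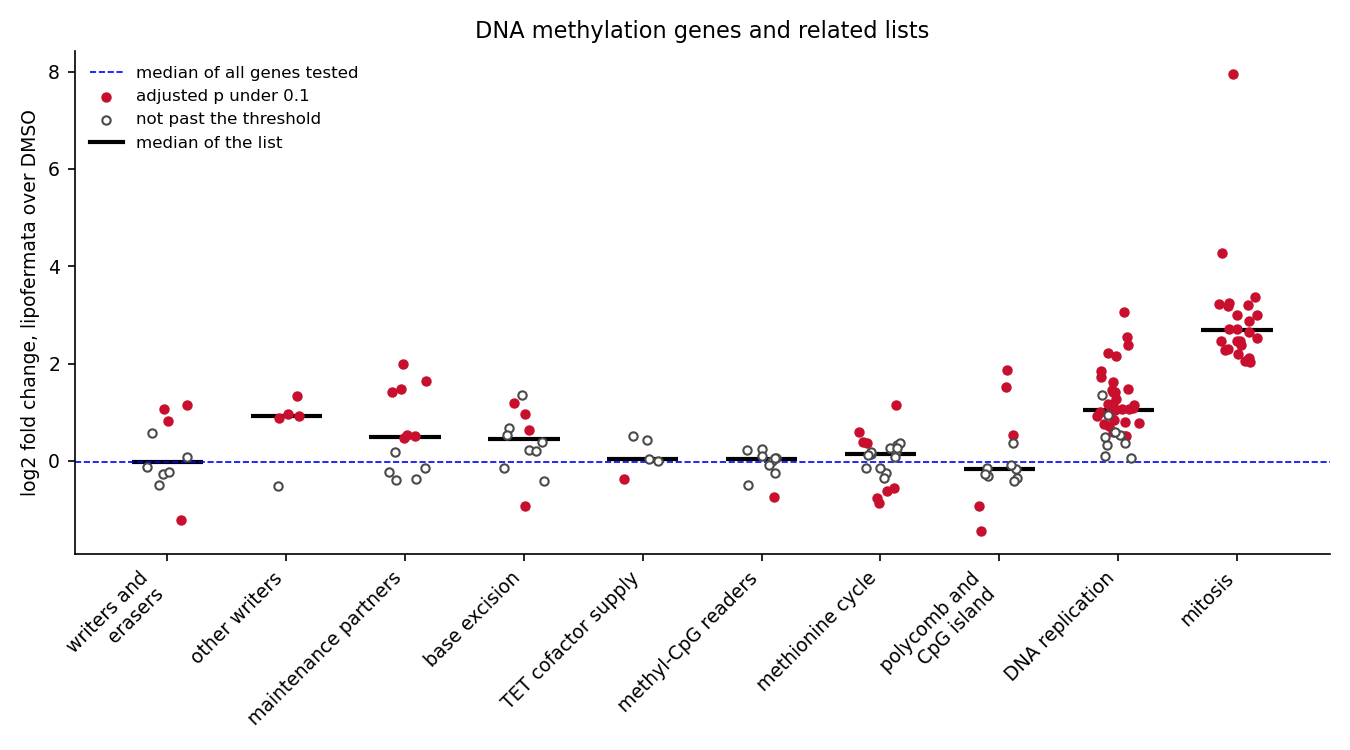
Log2 fold change of lipofermata over DMSO for every tested gene of the DNA methylation lists and of the lists of DNA replication and mitosis. Red points passed an adjusted p of 0.1, open points did not, black bars are list medians and the dashed line is the median of all genes tested (-0.03). The medians of the 10 writers and erasers (-0.02) and of the readers (0.04) lie near that line, and those of replication (1.05) and mitosis (2.68) lie above it, with the topmost mitosis point, birc5a, at 0 counts with DMSO, where the fitted value is no bound.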

How the data were processed

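RNA from 4 pools of livers was measured. Per the submitters' processing notes, the authors used HISAT2 with the GRCz11 build and then featureCounts. Their versions, the annotation release, the strand setting and the handling of multiply mapped reads are not given in the sources used. The deposited values are raw counts per gene with no normalization (14997821 to 19368695 per library), and the binomial intervals of shares cover counting error only, whereas intervals of log2 fold changes come from the edgeR fit and include the spread between pools. In all, 28 rows carried no gene name. Where a listed symbol had several identifiers, the most counted was taken. Genes were kept by edgeR's filterByExpr with a minimum count of 10, scaled by TMM and tested with edgeR's quasi-likelihood F test (edgeR 4.0.16, R 4.3.3), with treatment as the only term and Benjamini-Hochberg adjustment over 14925 genes at a threshold of 0.1, the false discovery rate in the study's methods. At that rate the study, with other software, reported fewer genes in each direction, so the calls here are not its calls. The standard error is the log2 fold change divided by the square root of F. Log2 CPM used a prior count of 2. Alternatives were DESeq2 1.42.0, limma voom (limma 3.58.1), total-count and RLE scaling, other filters on low counts, a replicate block, an adjusted p under 0.05 and each library left out. A fit with a library left out has a single library in that group. Its adjusted p then rests on the spread of the other group and of other genes. Fits were also run on simulated data with few changed genes and the same spread for all genes. That setting differs from these data, so the run does not show how the fits handle scaling or spread here. Replicates spread more widely than counting error alone allows (chi-square over degrees of freedom 13.6 for lipofermata, 23.0 for DMSO).

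The members and the 25 gene lists (325 genes, 12 of them not found) were chosen with earlier results of these data known. Genes named are the 10 members, every gene of the 5 lists closest to them that passed, up to 4 genes per direction with the smallest p of every other list, and the 5 genes nearest in pattern to uhrf1, dnmt1 and hells. Other list members given with values that did not pass were chosen after their values were seen. Gene order was taken from RefSeq's GRCz12tu assembly by symbol, and the files' own coordinates were not used here. A further candidate for these lists is not reported here.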

Additional observations from a re-analysis of the deposited data

How the results depend on the processing

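Of the 10 genes, 3 rose in the edgeR test and in all alternatives except total-count scaling, where hells was the fourth, and without lipofermata replicate 1, where uhrf1 was lost and 2 rose. Leaving out each library in turn gave 0 to 2 lower genes, against 1 with all libraries. Over all genes, total-count scaling gave 5092 higher and 1182 lower, and leaving out each library gave 1128 to 3115 higher and 1284 to 2898 lower. Against mitosis genes in place of replication genes, the differences in relative level were -1.77 for dnmt1, -2.05 for uhrf1 and -2.35 for hells. Against replication genes, leaving out each library gave -0.23 to 0.17 for dnmt1, -0.48 to -0.13 for uhrf1 and -0.83 to -0.38 for hells. The log2 fold change of ogt.1 was 0.025 with total-count scaling, and that of marco, a macrophage marker, ran over -2.25 to 0.28 when each library was left out. The replicate numbers are not said to mark a shared clutch, and deviations of same-numbered libraries from their group means had a correlation of 0.033 across 14925 genes. With the replicate number as a block, 2756 genes rose and 2724 fell, the block left 3 higher and 1 lower of the 10 genes, and the log2 fold changes of dnmt1, uhrf1, dnmt3ba and dnmt3bb.1 were 1.12, 0.83, 1.11 and -1.18. Genes with few counts, such as tet1, dnmt3aa and dnmt3bb.1, had wide intervals, to which counting error and the spread between 2 pools both add.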

Other observations

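Polycomb proteins, which repress genes at CpG-rich promoters that lack DNA methylation, were listed with proteins that bind unmethylated CpG. Of 13 tested genes 3 rose, 2 fell and 8 did not pass, so that 5 of 13 passed, not far from the 33.5% of all genes that did. Their median log2 fold change was -0.16. The H3 lysine 27 methyltransferase ezh2 rose by 1.87 and its partner rbbp4 by 1.53, and both passed under all 12 alternatives. The paralog ezh1 fell by 0.92 and kdm2bb, which encodes a demethylase that binds CpG islands, fell by 1.44. The call of suz12a (0.54, higher) was lost with DESeq2 and on leaving out a lipofermata replicate, and ezh1 did not pass without lipofermata replicate 1 or with total-count scaling.

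Germline genes, many of which are silenced by DNA methylation in body cells of mammals, were near the limit of detection. Of 22 found, 3 had enough counts to be tested and none passed (only rnf17, with 47 counts with lipofermata and 12 with DMSO, had an unadjusted p under 0.05, and none passed with DESeq2 or limma voom, whereas 2 were higher with total-count scaling). Their summed level was 8.05 and 8.11 CPM in the lipofermata libraries and 5.60 and 4.74 CPM in the DMSO libraries, and 5 of them, among them ddx4 and nanos3, had 0 counts in all 4 libraries. Of 16 tested interferon response genes, which can respond to unmethylated repeats, 9 fell and none rose, whereas 16.9% of all genes tested fell. With DESeq2 7 fell, and with total-count scaling 5 fell. The median log2 fold change of these genes was -0.49, beside -0.03 over all genes tested, and those with the smallest p were stat1b (-3.41) and ifit14 (-3.98). Methylation itself was not measured.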
